A study of Mus musculus with 6 samples.

Results

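Reverse-transcription stops at RNA G-quadruplex motifs of undifferentiated mouse embryonic stem cells were compared between K+ and Li+ libraries of the same day 0 sample. The comparison covers 1273 of the 5538 sites listed, namely those with at least 20 reads in both the K+ and the Li+ library of both day 0 replicates, after 9 sites in ribosomal and mitochondrial RNA that met the same minimum were set aside. They lie in 686 gene entries and form 948 groups of overlapping motifs. In 272 genes there was more than 1 site, up to 22 in a gene, so that sites of one gene share RNA and, where motifs overlap, reads. Of the sites, 798 lie in 3′ UTRs and 275 in coding sequence.

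A G-quadruplex is a stack of guanine quartets that 4 runs of guanines can form, and K+ in the central channel holds it together while Li+ does not. An RNA quadruplex that folds during reverse transcription halts the enzyme at its 3′ edge, which gives a stop in K+ that is weaker in Li+. Dimethyl sulfate (DMS) methylates guanines that are free in an unfolded motif, and a motif methylated in the cell cannot refold afterwards, so in cells treated with DMS a K+ stop above the Li+ level is the readout of a motif that was protected in the cell.

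Each day 0 sample gave 1 K+ and 1 Li+ library. The cells were a clonal TsixTST/+ embryonic stem cell line from a 129S1/CastEiJ x 129S1 cross, in which one copy of the X-linked Tsix gene carries the TST allele. The labels give genotype WT and treatment None for all samples, and all samples of the series come from this one clone. Day 0 cells were those grown on inactivated feeders with serum and leukemia inhibitory factor, and the same protocols apply to embryoid bodies of day 3, kept in suspension, and of day 7, grown attached after day 3 without that factor. All cells were exposed to DMS, and chromatin-bound polyadenylated RNA was fragmented before the stops were mapped, so the values describe that fraction. The labels do not say whether the 2 replicates of a day came from separate cultures, so p-values from fits over replicates measure the spread between these samples, which may be technical.

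Outside ribosomal and mitochondrial RNA the K+ and Li+ libraries held 479785 and 299533 reads in replicate 1, and 143616 and 152113 reads in replicate 2. The set-aside sites took 77.3% to 83.8% of the listed reads of each library. A median site had 159 K+ and 101 Li+ reads in replicate 1, against 51 and 54 in replicate 2, so replicate 2 is the less precise. No site had a listed coverage between 1 and 5 reads. Of 13 embryonic stem cell markers 7 have a site in the tables, and all 7 had 20 reads or more at their best site in replicate 1, against 6 in replicate 2, where Sall4 was listed at 0. The summed reads at these best sites were 4737 and 1587 in replicates 1 and 2. Of the 10 feeder fibroblast markers 3 have a site, with summed reads of 340 and 42. Fn1 had 235 and 30 reads, Sparc 105 and 12, and Col1a1 was listed at 0 in both. Thus 2 of these 3 had 20 reads or more in replicate 1, and 1 in replicate 2. Of the 11 markers of differentiated cells 7 have a site, with summed reads of 70 and 0. In RNA of a whole culture, fewer cells of a type and less RNA per cell cannot be told apart.

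The motifs below are among those that carry the differences described next. They are shown because most of the sites at which K+ and Li+ differed in replicate 2, or at which the replicates contradicted each other, were canonical motifs, that is 4 runs of at least 3 guanines with loops of at most 7 bases. Capitals mark runs of 3 or more guanines (2 or more in the two-quartet motifs of Igf2bp1 and Rpl8), the files mark the stops toward the 3′ end of the motif, and coordinates are on mm10.
Prrc2a, 3′ UTR, chr17:35149171-35149196, minus strand: GGGGtGGGtGGGGaGGGGttgtGGGt
Prmt1, 3′ UTR, chr7:44976834-44976862, minus strand: GGGGGGatGGGcttGGGGGatGGGGGGGt
Lin28a, 3′ UTR, chr4:134003568-134003586, minus strand: GGGGaGGGtGGGaaaGGGt
Srrm2, 3′ UTR, chr17:23824452-23824481, plus strand: GGGaGGGaGGGagtctaGGGaGGGaGGGGc
Atic, 3′ UTR, chr1:71579226-71579254, plus strand: GGGGGtcaGGGGGaagtGGGGGtGGGGGt
Igf2bp1, two-quartet, 3′ UTR, chr11:95957236-95957254, minus strand: GGGGGtcccttccGGGGGa
Rpl8, two-quartet, coding sequence, chr15:76904885-76904909, plus strand: GGaGGagaaacctGGGGacaGGGGc
Malat1, canonical, noncoding, chr19:5797748-5797765, minus strand: GGGaGGGGGGGatGGGGc
Malat1, long loop, noncoding, chr19:5799375-5799403, minus strand: GGGtGGGcttttgttgatgaGGGaGGGGa
Malat1, bulged, noncoding, chr19:5796878-5796899, minus strand: GGGGtggaGGGGtgaggtGGGc

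In both day 0 replicates the typical site stopped the enzyme no more often in K+ than in Li+. The median stop share, that is stops over reads at a site, was 2.38% in K+ and 2.56% in Li+ in replicate 1, and 1.96% in K+ and 3.28% in Li+ in replicate 2. The K+ share was the higher at 562 sites and the Li+ share at 667 sites of replicate 1, and in replicate 2 the counts were 368 and 766. The median log2 odds ratio of a stop, K+ over Li+ with 0.5 added to each count, was -0.22 in replicate 1 and -0.50 in replicate 2. With a minimum of 50 reads these medians were -0.11 and -0.60, and with a minimum of 10 they were -0.28 and -0.40. At unequal depth the added 0.5 itself shifts the ratio. The L1td1 site, without a stop in 47 K+ and 28 Li+ reads of replicate 1, had -0.74 there. The 2 tables named in vitro both belong to the day 7 samples, so they are no day 0 reference. In each of them, all 1273 members had the higher share in K+ (1268 and 1213 of them with at least 20 reads of either cation), which was the direction of a minority of sites in both day 0 replicates. How the listed sites were called is not stated. If they were chosen by their K+ stops in vitro, the in vitro count was fixed by that choice.

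Summed over all members the stop share was 4.82% in K+ (95% exact binomial interval 4.75% to 4.89%) and 5.68% in Li+ (5.59% to 5.78%) in replicate 1, and 5.69% (5.57% to 5.82%) and 7.09% (6.95% to 7.23%) in replicate 2. These sums rest on few sites. The sites of Ankrd60, Pnck and Cmc4/Mtcp1 alone held 39.7% of the K+ stops and 42.6% of the Li+ stops in replicate 1, and 55.4% and 43.8% in replicate 2. At the coding Ankrd60 site, the deepest of the 3, the share was close to equal between cations, 48.5% in K+ against 49.6% in Li+ in replicate 1 and 49.4% against 50.4% in replicate 2. Over the sites that remained after the 10 with most stops were left out of each library, the shares were 2.74% in K+ and 3.07% in Li+ in replicate 1, and 2.43% and 4.03% in replicate 2. The 10 were picked for each library apart, so the remaining sites differ in part between K+ and Li+. At the set-aside ribosomal and mitochondrial sites the order was the other way round, with 13.2% of reads stopping in K+ and 12.8% in Li+ in replicate 1, and 11.8% and 11.4% in replicate 2.

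Site by site, few differences passed a test. A two-sided Fisher's exact test on stops and other reads, with Benjamini-Hochberg adjustment over the 1273 sites, called 7 sites in replicate 1, which is 0.55% of those tested, and 9 sites in replicate 2, which is 0.707%. K+ was higher at 2 of the called sites in replicate 1 (0.157%) and Li+ at 5 (0.393%), while in replicate 2 K+ was higher at 1 (0.0786%) and Li+ at 8 (0.628%). At an unadjusted p under 0.05 there were 73 sites in replicate 1, with K+ higher at 15 and Li+ at 58, and 92 in replicate 2, with 6 and 86. Each of these tests compares 2 libraries of one sample and covers counting error only. The labels name no molecular identifiers, so reads may not be independent molecules, and every interval given here likewise covers counting error only. No site was called in the same direction in both replicates by Fisher's exact test, and 1 site, in Prrc2a, was called in opposite directions. Tested against each replicate's own median odds ratio in place of 1, the counts became 2 with K+ higher and 1 with Li+ higher in replicate 1, and 4 and 1 in replicate 2. That null value itself balances the directions, so these counts say nothing of the overall excess of Li+.

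The 2 replicates did not order the sites alike. The K+ over Li+ odds ratios had a Spearman correlation of 0.00 between the replicates over the 1273 sites, given as a description of sites that share libraries. A median site had 4 K+ and 3 Li+ stops in replicate 1, and 1 and 2 in replicate 2. Counting error at so few stops lowers a correlation by itself, so this value cannot show that sites differ between replicates. Both replicates were above 1 at 175 sites and both below 1 at 412, and they pointed opposite ways at 515, of which 337 had K+ higher in replicate 1 and Li+ higher in replicate 2 and 178 the reverse. In the plot of the replicates against each other the canonical motifs spread around 0 along the replicate 1 axis and sit mostly below 0 along the replicate 2 axis.

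**Figure D1:**
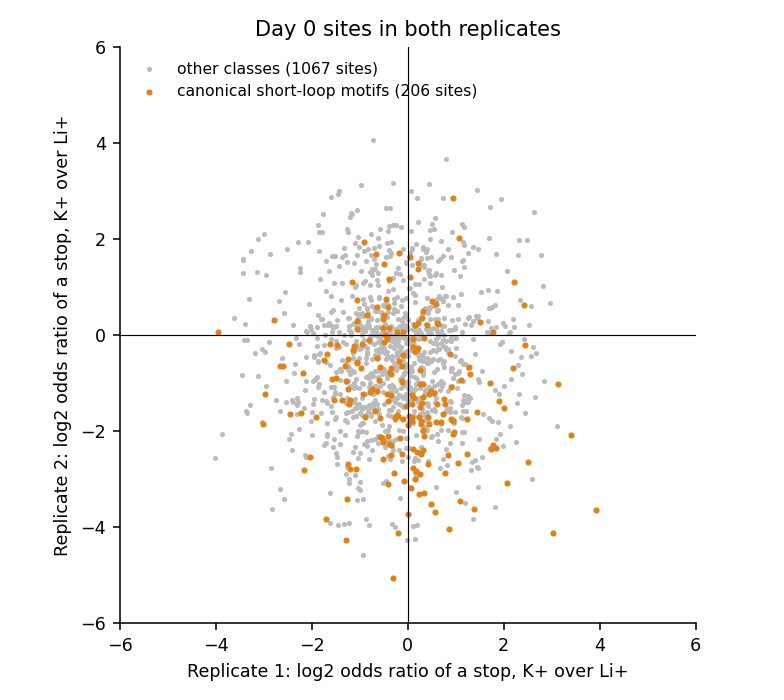
Each point is 1 of the 1273 day 0 sites, with the log2 odds ratio of a stop, K+ over Li+, in replicate 1 on the horizontal axis and in replicate 2 on the vertical axis. Orange points are the 206 canonical motifs and grey points the 1067 sites of other classes; the cloud has no slope, and the orange points lie mostly in the lower part.

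The site in the 3′ UTR of Prrc2a, which encodes an RNA-binding protein, is the clearest contradiction. In replicate 1 it had 34 stops in 183 K+ reads, a share of 18.6% (exact 95% interval 13.2% to 25.0%), against 1 stop in 99 Li+ reads, a share of 1.01% (0.026% to 5.50%). In replicate 2 it had 1 stop in 94 K+ reads, 1.06% (0.027% to 5.79%), against 12 stops in 74 Li+ reads, 16.2% (8.67% to 26.6%). The cation with the high share thus changed places between replicates. The log2 odds ratios were 3.92 (Fisher's exact test, adjusted p = 0.000983) and -3.64 (adjusted p = 0.0379), and they differed from each other by Zelen's exact test of equal odds ratios (adjusted p = 1.48e-05). In the 4 in-cell samples of days 3 and 7 and in both in vitro tables, the K+ share of Prrc2a was above the Li+ share, for instance 23.8% in K+ against 3.36% in Li+ in day 3 replicate 1 and 16.4% against 1.92% in day 7 replicate 1.

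Zelen's exact test found the odds ratio to differ between replicates at 9 sites, 0.707% of the 1273 tested, and 59 had an unadjusted p under 0.05. At 7 of the 9 the odds ratio was higher in replicate 1, and 6 of those 7 are canonical motifs in 3′ UTRs, in Prrc2a, Atic, Ddit4, Srrm2, Stip1 and Prmt1. Atic, an enzyme of purine synthesis, had a share of 9.62% in K+ against 6.11% in Li+ in replicate 1, and of 3.81% in K+ against 12.4% in Li+ in replicate 2 (adjusted p of the difference 0.00524 by Zelen's exact test). Ddit4, a stress-induced inhibitor of mTORC1, had 15 stops in 108 K+ reads against 5 in 123 Li+ reads in replicate 1, and 4 in 120 against 16 in 99 in replicate 2 (adjusted p 0.0127 by the same exact test). Stip1, a co-chaperone that links Hsp70 to Hsp90, had 7.78% in K+ against 4.69% in Li+ in replicate 1 and 5.38% against 12.7% in replicate 2 (adjusted p 0.0414). The remaining site of these 7, in Pnck, is described further on. In all 6 canonical motifs the K+ share was lower in replicate 2 than in replicate 1 while the Li+ share was higher. These motifs were picked for a higher odds ratio in replicate 1, so that pattern is largely built into the choice.

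The other 2 sites with a difference between replicates went the opposite way. At the 5′ UTR and coding boundary of Pou5f1, which encodes the pluripotency factor OCT4, the stop share was 23.3% of 1434 K+ reads (exact 95% interval 21.1% to 25.6%) against 31.6% of 1073 Li+ reads (28.8% to 34.5%) in replicate 1, and 20.1% of 427 K+ reads (16.4% to 24.3%) against 12.6% of 484 Li+ reads (9.78% to 15.9%) in replicate 2. Li+ was the higher by Fisher's exact test in replicate 1 (adjusted p = 0.00131, log2 odds ratio -0.60), K+ had the higher share in replicate 2 without passing (adjusted p = 0.119, log2 odds ratio 0.80), and the 2 odds ratios differed (adjusted p = 0.00102, Zelen's exact test). The call in replicate 1 was not made against that replicate's median odds ratio, while in replicate 2 the same site was called with K+ higher against the median (adjusted p = 0.000374). Rmrp, the RNA of the ribonuclease MRP complex, had 48 stops in 953 K+ reads against 87 in 715 Li+ reads in replicate 1 (adjusted p = 0.000211, Fisher's exact test) and 20 in 398 against 13 in 429 in replicate 2, where Fisher's exact test did not call it. For Rmrp the adjusted p of the difference between replicates was 0.0414 by Zelen's exact test.

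**Figure D2:**
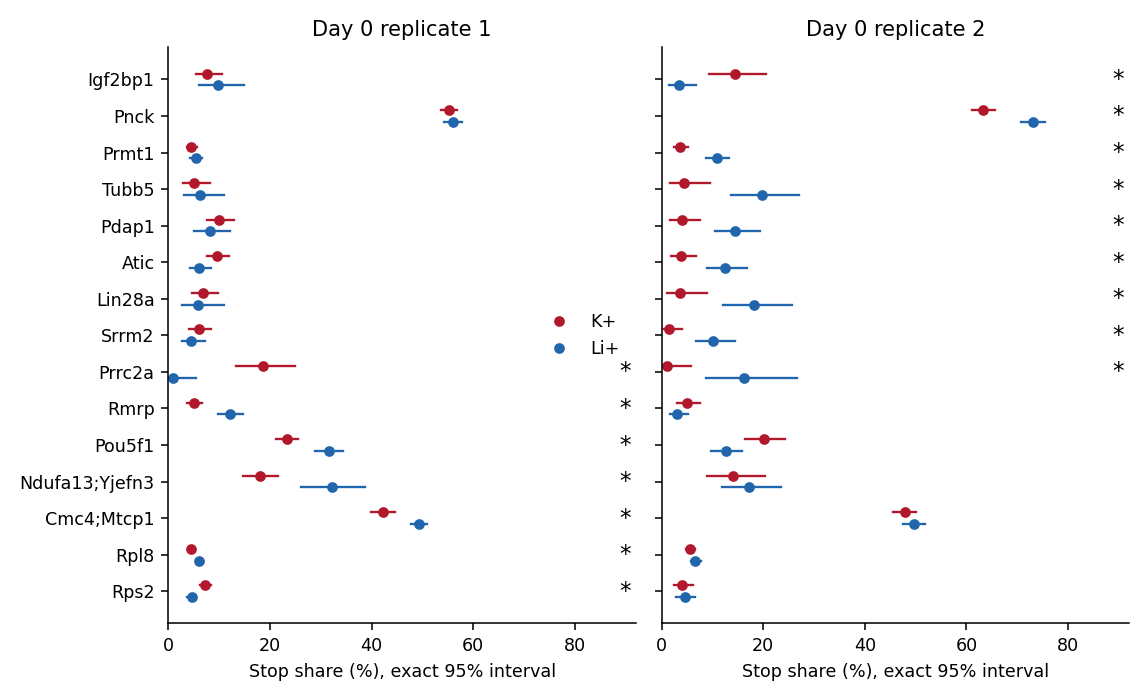
Stop share in K+ (red) and Li+ (blue) with exact 95% binomial intervals for the 15 sites called in at least 1 replicate, replicate 1 on the left and replicate 2 on the right, with an asterisk where Fisher's exact test called the site. Prrc2a is the only one marked in both panels, with the colours exchanged.

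The calls of the remaining sites of replicate 1 were not repeated in replicate 2. The shared 5′ UTR site of Cmc4 and Mtcp1 had a share of 42.3% of 1762 K+ reads against 49.3% of 3864 Li+ reads in replicate 1, and 47.8% against 49.6% in replicate 2. Ndufa13, a subunit of respiratory complex I, overlaps Yjefn3 at a site with 18.0% in K+ against 32.1% in Li+ in replicate 1 and 14.0% against 17.1% in replicate 2. Both keep Li+ on top in both replicates, which is a direction and not a second call. Of the ribosomal protein genes, Rpl8 had 4.39% in K+ against 6.07% in Li+ in replicate 1 and 5.63% against 6.65% in replicate 2, whereas Rps2 had 7.29% against 4.60% in replicate 1 and 4.03% against 4.53% in replicate 2. Ribosomal protein genes have many processed copies in the genome, and no source used here states how reads with several matches were counted. Against the replicate's own median odds ratio, the replicate 1 calls of Rmrp, Prrc2a and Rps2 were kept, and those of Cmc4/Mtcp1, Ndufa13/Yjefn3, Rpl8 and Pou5f1 were not.

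In replicate 2 the called sites were mostly canonical 3′ UTR motifs with Li+ above K+. They are 6 of the 8 sites with Li+ higher: Prmt1, Srrm2, Pdap1, Atic, Lin28a and Prrc2a. Prmt1, the main protein arginine methyltransferase, had 29 stops in 799 K+ reads, 3.63%, against 80 in 736 Li+ reads, 10.9% (log2 odds ratio -1.68, adjusted p = 1.68e-05, Fisher's exact test), and 4.55% against 5.36% in replicate 1. Srrm2, a splicing factor that scaffolds nuclear speckles, had 4 stops against 26 in 256 reads of either cation (log2 odds ratio -2.69, adjusted p = 0.0155, Fisher's exact test), and 6.02% against 4.51% in replicate 1. Lin28a, an RNA-binding protein of pluripotent cells that blocks let-7 maturation, had 4 stops in 111 K+ reads against 25 in 137 Li+ reads (log2 odds ratio -2.44, adjusted p = 0.0379, Fisher's exact test), and 6.87% against 5.88% in replicate 1. Pdap1 had 3.96% against 14.5% (log2 odds ratio -1.97, adjusted p = 0.0256, Fisher's exact test), and 10.0% against 8.11% in replicate 1. Only Prmt1 among these 6 had the Li+ share on top in replicate 1 as well.

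The same 6 motifs had the K+ share on top elsewhere in the series. K+ was higher at 6 of 6 in both day 3 samples, in day 7 replicate 1 and in both in vitro tables, at 5 of 6 in day 7 replicate 2 and at 5 of 6 in day 0 replicate 1, against 0 of 6 in day 0 replicate 2, which is the library pair that chose them. This direction was common: of 136 canonical motifs with 20 reads in all 12 in-cell libraries, K+ was higher at 85.3% and 83.8% in the day 3 replicates. It was higher at 93.4% and 61.8% in the day 7 replicates, and at 48.5% and 15.4% in the day 0 replicates. Lin28a, for example, had 17.1% in K+ against 5.78% in Li+ in day 3 replicate 1, 16.1% against 2.59% in day 3 replicate 2, 10.8% against 4.35% in day 7 replicate 1 and 89.0% against 23.8% in the first in vitro table. The Li+ share of Lin28a in day 0 replicate 2, 18.2%, is thus as high as its K+ share on day 3.

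The other 3 sites called in replicate 2 were of other classes. Pnck, a calcium/calmodulin-dependent kinase gene on the X chromosome, had a 5′ UTR site at which 63.3% of 1789 K+ reads stopped, against 73.1% of 1415 Li+ reads, while replicate 1 had 55.3% against 56.1% (adjusted p of the difference 0.00192, Zelen's exact test). Tubb5, a beta-tubulin, had 6 stops in 134 K+ reads against 30 in 152 Li+ reads, while replicate 1 had 5.13% against 6.25%. Igf2bp1, an mRNA-binding protein of early development, is the only site with K+ above Li+ called in replicate 2, with 24 stops in 167 K+ reads against 8 in 231 Li+ reads (log2 odds ratio 2.17, adjusted p = 0.0256, Fisher's exact test), and replicate 1 had 7.69% in K+ against 9.85% in Li+. With a minimum of 10 reads, and so more sites to adjust over, the replicate 2 calls of Atic, Lin28a and Prrc2a were lost, and against the median odds ratio only Prmt1 and Igf2bp1 of the 9 were kept.

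A fit of both replicates together, whose error is the spread between samples, called no site. In limma on the log2 odds of a stop over the 12 in-cell libraries, 0 of 1273 day 0 differences between K+ and Li+ passed an adjusted p of 0.05 (0% of those tested), and the smallest adjusted p was 0.568. At an unadjusted p under 0.05 there were 88, with K+ higher at 10 and Li+ at 78. Counting error alone leaves most sites undecided: the 95% interval of the odds ratio lay wholly below a 2-fold excess of K+ at 224 sites in replicate 1 and 216 in replicate 2, and elsewhere the interval reached past 2-fold, or no stop was recorded and none could be given.

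By structural class the replicates parted at the canonical motifs, 206 sites in 163 gene entries. In replicate 1 their median stop share was 3.63% in K+ and 3.59% in Li+, with K+ higher at 101 and Li+ at 99 and a median log2 odds ratio of -0.08. In replicate 2 it was 2.22% in K+ and 5.97% in Li+, with K+ higher at 35 and Li+ at 153 and a median of -1.26. Set beside the medians over all sites, -0.22 and -0.50, the canonical motifs were near the typical site in replicate 1 and lower in replicate 2. Stops were recorded in Li+ alone at 51 canonical motifs and in K+ alone at 9 in replicate 2, against 6 and 14 in replicate 1. These single-cation counts were not made over all sites. Fisher's exact test at an unadjusted p under 0.05 had Li+ higher at 40 of 40 canonical motifs in replicate 2 and at 12 of 21 in replicate 1. Over all sites, canonical motifs included, Li+ was higher at 86 of 92 in replicate 2 and at 58 of 73 in replicate 1. In replicate 2 the direction was thus near that of all sites. Passing was more frequent among canonical motifs, at 40 of 206 against 92 of 1273 in replicate 2. In replicate 1 it was 21 of 206 against 73 of 1273. Read depths of the 2 cations were alike in replicate 2, with 17933 K+ and 18002 Li+ reads over the canonical motifs.

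This gap in replicate 2 was larger at canonical motifs with short loops. The 117 motifs with a total loop length of at most 8 bases, the median, had a median log2 odds ratio of -1.61 in replicate 2 and of -0.03 in replicate 1, while the 88 with longer loops had -0.87 and -0.10. In the short-loop set of replicate 2 the median stop share was 2.26% in K+ and 7.69% in Li+, and K+ was higher at 13 of 117.

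Among the classes with over 100 sites, the canonical motifs had the lowest median in replicate 2. Replicates 1 and 2 had medians of -0.27 and -0.47 at the 512 bulged motifs, -0.18 and -0.57 at the 139 long-loop motifs, -0.18 and -0.26 at the 233 two-quartet motifs, and -0.35 and -0.23 at the 170 sites that the files call potential G-quadruplexes. The 13 potential G-triplex sites had -0.46 and 0.19. By transcript region the 3′ UTR sites had medians of -0.15 and -0.71, and the 275 coding sites -0.39 and -0.17. Within 3′ UTRs, canonical motifs (167 sites) had -0.11 in replicate 1 and -1.34 in replicate 2, against -0.10 and -0.42 at two-quartet motifs (136 sites). These are medians over sites that share genes and libraries, and they carry no test.

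**Figure D3:**
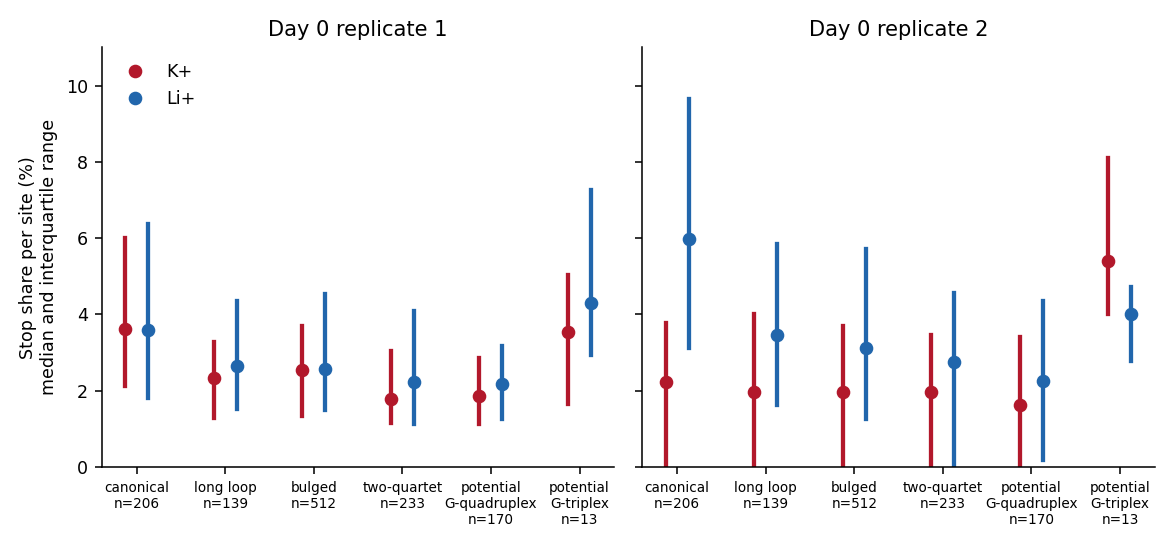
Median stop share per site in percent (points) and interquartile range over sites (bars) in K+ (red) and Li+ (blue) for each structural class, replicate 1 on the left and replicate 2 on the right. At canonical motifs both cations stand near 3.6% in replicate 1, and in replicate 2 the medians are 2.22% in K+ and 5.97% in Li+.

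The in vitro tables of the day 7 samples give a measure of each motif that the choice of members did not rank by. Sites were split into 4 groups of near equal size by their in vitro K+ stop share, whose medians were 22.7%, 34.5%, 47.3% and 68.8%. From lowest to highest the groups held 21, 52, 56 and 77 canonical motifs, so in vitro share and class are not separated here. Along these groups the median K+ share of day 0 replicate 2 did not climb (1.92%, 2.14%, 1.85% and 1.94%), while its Li+ share did (2.22%, 2.86%, 3.42% and 4.76%). In replicate 1 both cations climbed alike, K+ with 1.96%, 2.33%, 2.40% and 2.99%, and Li+ with 2.14%, 2.44%, 2.53% and 3.47%. The median log2 odds ratio of the top group was -0.31 in replicate 1 and -1.11 in replicate 2.

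**Figure D4:**
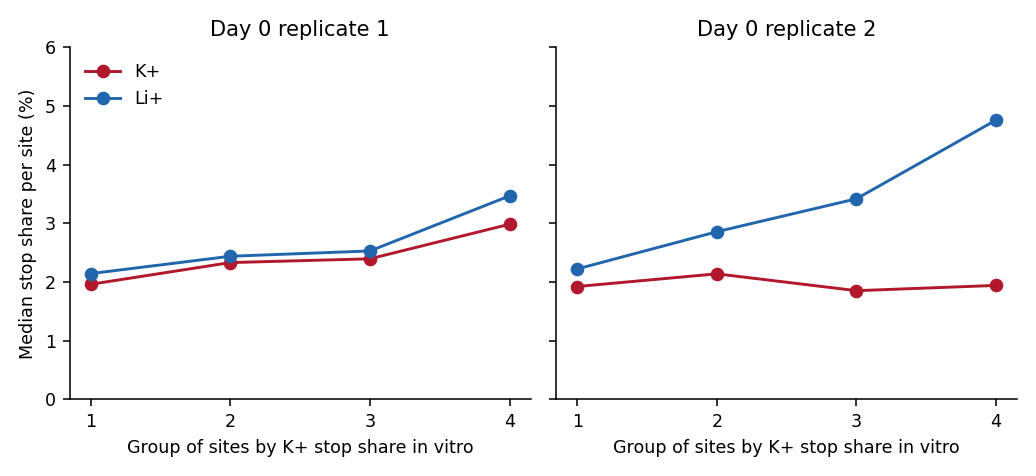
Median stop share per site in day 0 libraries, in percent, against the group of the 1273 sites by K+ stop share in vitro, from 1 (lowest) to 4 (highest), with K+ in red and Li+ in blue. The replicate 2 Li+ line ends at 4.76% and the K+ line at 1.94%, while the replicate 1 lines run together.

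The ranking of sites by stop share was set side by side across libraries. Over the 1273 sites the Spearman correlation with the first in vitro K+ table was 0.18 for K+ and 0.21 for Li+ in replicate 1, and 0.02 for K+ and 0.28 for Li+ in replicate 2. The K+ library of replicate 1 correlated at 0.32 with the K+ library of replicate 2 and at 0.47 with its Li+ library. With the K+ library of day 7 replicate 1 the correlations were 0.26 for K+ and 0.53 for Li+ of day 0 replicate 2, and 0.50 for K+ and 0.44 for Li+ of day 0 replicate 1. All these values are descriptions over sites that share depth and base composition. With Li+ libraries the Li+ column of replicate 2 also had the higher correlation in most cases, 0.40 against 0.24 for its K+ column with the Li+ library of day 0 replicate 1 and 0.45 against 0.21 with that of day 7 replicate 2, while with that of day 3 replicate 2 it was 0.21 against 0.25. Whether the cation columns of that replicate stand under the right heading was not tested. Exchanging them in the joint limma fit gave 1 called site, Prrc2a, with a log2 odds ratio of 3.82 (adjusted p = 0.00158), and a median log2 odds ratio of 0.06 in place of -0.35.

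In noncoding transcripts the Li+ share was the higher at most sites of both replicates. Of 41 sites in 22 gene entries, Li+ had the higher share at 31 in replicate 1 and 30 in replicate 2, which is 75.6% and 73.2%, against 52.4% and 60.2% over all sites. Their summed stop share was 3.91% in K+ against 6.32% in Li+ in replicate 1, and 3.91% against 6.33% in replicate 2. Median log2 odds ratios were -0.93 and -0.74. Fisher's exact test called 1 of these sites, Rmrp in replicate 1 (0.55% of all sites were called there in either direction).

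Malat1, the long RNA of nuclear speckles that stays on chromatin, supplied 12 of these sites. Li+ had the higher share at 11 of 12 in replicate 1 and at 11 of 12 in replicate 2. Counting each group of overlapping motifs once, 8 separate sites remained, and Li+ was higher at 8 of 8 in both replicates. Over these 8 the K+ share was 2.82% of 3262 reads (exact 95% interval 2.28% to 3.45%) against a Li+ share of 5.90% of 1829 reads (4.87% to 7.09%) in replicate 1, and 3.17% of 1547 reads (2.35% to 4.17%) against 6.51% of 1767 reads (5.40% to 7.76%) in replicate 2. The intervals of the cations did not overlap in either replicate, as was also the case over all 948 separate sites. Over those the shares were 5.33% in K+ (5.25% to 5.42%) against 6.37% in Li+ (6.26% to 6.49%) in replicate 1. In replicate 2 they were 6.61% (6.45% to 6.76%) against 7.98% (7.81% to 8.14%). Li+ was higher at 504 of the 948 in replicate 1 and at 581 in replicate 2. Malat1 was chosen after its values were seen.

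Single Malat1 motifs did not pass the test over 1273 sites. At the canonical motif printed above, 14 of 221 K+ reads stopped against 22 of 147 Li+ reads in replicate 1, and 7 of 206 against 17 of 199 in replicate 2. At the long-loop motif, 6 of 347 K+ reads stopped against 13 of 149 Li+ reads in replicate 1 (adjusted p = 0.0777, Fisher's exact test), and 7 of 155 against 19 of 167 in replicate 2. At the bulged motif the counts were 11 of 249 against 11 of 136 in replicate 1, and 0 of 109 against 13 of 137 in replicate 2 (adjusted p = 0.0639, Fisher's exact test). With a minimum of 50 reads, and so fewer sites to adjust over, the long-loop motif passed in replicate 1 (adjusted p = 0.0354) and the bulged motif in replicate 2 (adjusted p = 0.0313).

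The direction at Malat1 varied among the other samples. K+ was higher at 7 of the 8 separate sites in replicate 1 of day 3 and of day 7, and Li+ at 5 of 8 in day 3 replicate 2 and at 7 of 8 in day 7 replicate 2. Over the same 8 separate sites the K+ share was 16.7% against 4.48% in Li+ in day 3 replicate 1 and 10.1% against 7.32% in day 7 replicate 1, while day 3 replicate 2 had 4.27% against 4.34% and day 7 replicate 2 had 5.45% against 6.35%. In vitro it was 51.3% in K+ against 19.5% in Li+ in the first table and 50.0% against 13.8% in the second. Of the remaining noncoding sites, 26 after overlaps were merged, Li+ was higher at 17 in replicate 1 and 18 in replicate 2. Without Rmrp as well, the 25 others had 4.25% in K+ against 5.30% in Li+ in replicate 1 and 4.66% against 6.75% in replicate 2.

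Among genes of the stem cell state, the pluripotency list had 22 sites of 10 genes, with median log2 odds ratios of -0.22 in replicate 1 and -0.24 in replicate 2, beside -0.22 and -0.50 over all sites. K+ was higher at 9 of the 22 in each replicate, which is 40.9%, beside 44.1% and 28.9% of all sites. Fisher's exact test called 1 of the 22 in each replicate, Pou5f1 in replicate 1 (0.55% of all sites were called there) and Lin28a in replicate 2 (0.707% of all sites), both with Li+ higher, and none in both. The canonical 3′ UTR motif that Sox2 shares with the overlapping noncoding Sox2ot, at chr3:34651636-34651657, had 6 stops in 409 K+ reads against 14 in 316 Li+ reads in replicate 1 and 2 in 71 against 6 in 101 in replicate 2, and was not called. Both genes are listed for this one site, so which of them the reads came from cannot be told apart.

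Other stem cell sites were thinner. Esrrb, a nuclear receptor of naive pluripotent cells, had 3 stops in 60 K+ reads against 3 in 88 Li+ reads in replicate 1 and 0 in 27 against 5 in 28 in replicate 2. Mybl2, a cell cycle transcription factor, had 12 in 135 against 9 in 117 and, in replicate 2, 2 in 33 against 1 in 54. L1td1, an RNA-binding protein of pluripotent cells, had no stop in any of the 4 libraries, at 47 K+ and 28 Li+ reads in replicate 1 and 44 and 31 in replicate 2, which allows a share of up to 7.55% and 12.3% in replicate 1 and of 8.04% and 11.2% in replicate 2 (upper limits of exact 95% intervals). The 3′ UTR sites of Trim71, a partner of the let-7 pathway, had between 0 and 7 stops per library. At its bulged motif, where the in vitro tables average 85.9% in K+ and 5.82% in Li+, the day 0 share was 0.66% of 152 K+ reads against 4.35% of 69 Li+ reads in replicate 1, and 0 of 23 against 3 of 34 in replicate 2. An overlapping Trim71 site went the other way, with 7 stops in 326 K+ reads against 0 in 166 Li+ reads in replicate 1. Replicate 2 had 3 in 54 against 2 in 60 there. The coding long-loop motif of Pou5f1 also had K+ on top, 2.65% against 1.94% in replicate 1 and 1.81% against 1.16% in replicate 2. Over the 22 sites of the list, Li+ was higher at 12 in replicate 1 and at 11 in replicate 2.

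Most of the other gene lists also had medians below 0 in both replicates, where the medians over all sites were -0.22 and -0.50. Transcripts of rG4 helicases and binding proteins (95 sites) had -0.18 in replicate 1 and -0.21 in replicate 2, splicing and RNA processing factors (82 sites) -0.30 and -0.30, ribosomal protein and translation genes (38 sites) -0.45 and -0.39, Polycomb and chromatin regulators (17 sites) -0.34 and -0.38, and glycolysis and energy metabolism genes (15 sites) -0.46 and -0.34. The nuclear and imprinted noncoding RNAs, Malat1 among them (23 sites), had -1.08 and -0.99. The cytoskeleton and lamina genes (21 sites) had -0.11 and -0.75. The stress and immediate early genes (17 sites, Ddit4 among them) had 0.02 in replicate 1 and -1.07 in replicate 2, and K+ higher at 9 sites in the first and 4 in the second. Called members of these lists in replicate 1, where 0.55% of all sites were called, were Rps2 and Rpl8 among the 38 translation sites and Ndufa13 among the 15 energy sites. In replicate 2, where 0.707% were called, they were Prmt1 and Lin28a among the 95 sites of the rG4 list and Tubb5 among the 21 cytoskeleton sites. Prmt1 is on the rG4 list although it is a methyltransferase.

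In K+ against Li+, both day 0 samples lay below all 4 later samples over all classes and at canonical motifs. At the 838 sites with 20 reads in all 12 in-cell libraries, the median log2 odds ratio was -0.16 and -0.51 in the day 0 replicates, 1.32 and 0.34 in the day 3 replicates, and 0.49 and -0.13 in the day 7 replicates. At the 136 canonical motifs among them the day 0 replicates had -0.10 and -1.23, those of day 3 1.81 and 0.99, and those of day 7 1.03 and 0.21. At bulged, long-loop and two-quartet motifs the groups overlapped, since day 7 replicate 2 (-0.18, -0.24 and -0.37) lay below day 0 replicate 1 (-0.10, -0.14 and -0.18). The mean difference of day 0 from days 3 and 7 was -0.84 over all classes and -1.67 at canonical motifs, and the exact two-sided permutation test over samples gave p = 0.133 for each, the smallest that 2 against 4 samples allow. Over all classes the gap was narrow, -0.16 in day 0 replicate 1 against -0.13 in day 7 replicate 2. With a minimum of 50 reads (288 sites) the all-class difference was -0.74. The exact permutation test then gave p = 0.267, so the separation was not complete there. The separation rests on the cation headings of day 0 replicate 2: with its columns exchanged, an alternative chosen after the values were seen, that sample had 0.51 over all classes and 1.23 at canonical motifs, and the differences became -0.33 (exact permutation p = 0.667) and -0.44 (p = 0.533). Site by site, limma found 0 of 1222 sites (0%) with a K+ over Li+ odds ratio that differed between day 0 and day 3 at an adjusted p of 0.05, with 169 at an unadjusted p under 0.05, of which 164 were lower on day 0. Against day 7 it was 0 of 1271 (0%), with 136 unadjusted, of which 130 were lower on day 0.

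**Figure D5:**
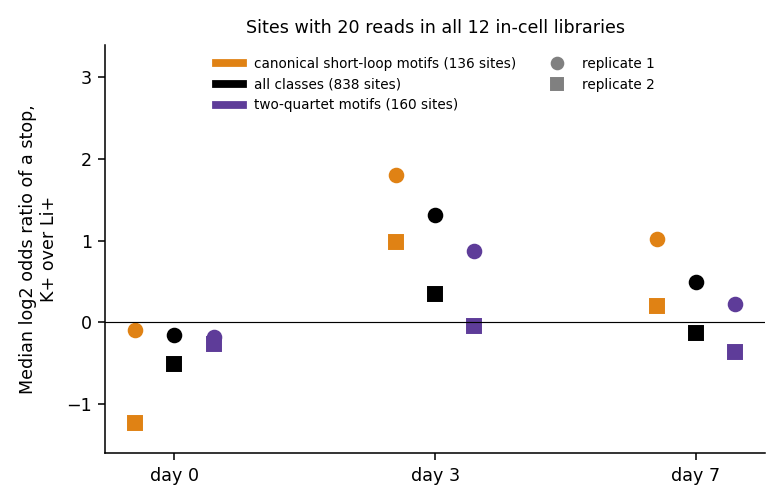
Median log2 odds ratio of a stop, K+ over Li+, per in-cell sample on days 0, 3 and 7, at the sites with 20 reads in all 12 in-cell libraries, for canonical motifs (orange), all classes (black) and two-quartet motifs (purple), circles for replicate 1 and squares for replicate 2. Both day 0 samples lie below 0 in each of the 3 sets, and the canonical motifs of day 0 replicate 2 are the lowest at -1.23.

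The minimum of 20 reads did not set the direction. The 209 sites just inside it, with 20 to 24 reads in their thinnest library, had median log2 odds ratios of -0.28 in replicate 1 and -0.60 in replicate 2, and the 268 sites just outside it, with 15 to 19 reads, had -0.29 and -0.33.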

How the data were processed

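The submitters' processing notes name cutadapt, STAR and SAMtools and the builds GRCm38.p6 and mm10; versions, multiple matches, strand use and the site caller are stated in no source used here. The deposited tables hold whole-number counts of reads that cover a site and of reads that stop at it, per cation and without normalisation, per the file headers. Each record runs over 2 lines. Motif coordinates were set 1-based from the stop position, and all 124 motifs that lie in RefSeq promoter windows (GRCm38.p6) matched their sequence there. Of 737 gene symbols 718 were found in RefSeq.

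Within each replicate, K+ and Li+ were compared by Fisher's exact test, and odds ratios between replicates by Zelen's exact test (Python 3.11.15, scipy 1.17.1). Both day 0 replicates were fitted together with day 3 and day 7 in limma 3.58.1 (R 4.3.3) on log2 odds with a pseudocount of 0.5 and beta-binomial weights, with values under 20 reads missing. All p-values were adjusted by Benjamini-Hochberg over all sites tested, at 0.05, and the tests were tested on simulated data. Alternatives were other coverage minimums, 1 site per gene, the set-aside sites kept in, the median odds ratio as the null value, exchanged cation columns, the sample as a block and leaving out a replicate. Named sites were drawn from those called in any of these tests, the sites of the pluripotency list, and called members of the other lists. Not every site of the pluripotency list is described. Ankrd60, Malat1 and the summed noncoding sites were chosen after their values were seen. The members and lists were chosen with earlier results of these data known. K+ and Li+ libraries of a sample share its cells by label, which is where the pairing for the block comes from. The motif sequences of some named sites are not reported here.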

Additional observations from a re-analysis of the deposited data

Results flagged for a closer look

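Days 0 and 3 differed in direction in every sample of several groups of sites: both day 0 samples had a median log2 odds ratio, K+ over Li+, below 0 and both day 3 samples one above 0. This held over all classes, where day 0 minus day 3 was -1.17, and among bulged motifs (-1.18), canonical motifs (-2.06), long-loop motifs (-1.34) and potential G-quadruplexes (-0.75). For canonical motifs it held against day 7 as well, with a difference of -1.28. For all classes and for canonical motifs the exact permutation test gave p = 0.333, the smallest that 2 against 2 samples allow, and the differences of the other classes were not tested. In all 6 comparisons the split of the days to opposite sides of 0 rests on the cation headings of day 0 replicate 2. With its columns exchanged, an alternative chosen after the values were seen, that sample had a median above 0 in each of these groups, so that the 2 day 0 samples lay on opposite sides of 0, and the differences from day 3 became -0.66 over all classes, -0.67 at bulged, -0.83 at canonical and -0.79 at long-loop motifs and -0.54 at potential G-quadruplexes, with -0.05 for canonical motifs against day 7. The values rest on 838 sites, 136 of them canonical.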

How the results depend on the processing

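Kept in, the 9 ribosomal and mitochondrial sites brought the calls to 16 in replicate 1 (K+ higher at 6, Li+ at 10), 17 in replicate 2 (3 and 14) and 20 for the difference between replicates. Against the replicate's median odds ratio there were 3 calls in replicate 1 and 5 in replicate 2, of which 3 and 2 were also called against 1. A minimum of 50 reads gave 15 calls in replicate 2, all 9 main ones among them, over 580 sites in place of 1273. With the cation columns of replicate 2 exchanged, 5 sites differed between replicates, the joint limma fit called 1, and the log2 odds ratio of replicate 1 minus replicate 2 changed sign at Atic (-1.10), Ddit4 (-0.52), Srrm2 (-2.27), Pou5f1 (0.20), Stip1 (-0.56), Prmt1 (-1.93) and Pnck (-0.70). The joint fit called 0 sites without replicate 1 (88 at an unadjusted p under 0.05) and 0 without replicate 2 (57), where the spread of the lone sample is assumed to be that of the other days. With the sample as a replicate block it called 0 (85 unadjusted, smallest adjusted p 0.374), so the block changed no call. Under the same exchange, chosen here after the values were seen, the median log2 odds ratio of replicate 2 was 0.50 in place of -0.50 and the difference of day 0 from days 3 and 7 was -0.33 in place of -0.84; under the other alternatives run, the medians of both replicates stayed below 0. Of the values of single sites, 93 kept direction and call, 19 lost the call and 7 changed sign, as listed. Depth limits replicate 2: 132 of its sites had no stop in either cation, against 42 in replicate 1.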
